A study of Homo sapiens with 12 samples.

Results

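The comparison described here is compound 1 at 30 µM against vehicle in U87 cells after 72 h, across all genes. It uses 6 of the 12 RNA-seq libraries of the series, 3 from cells given compound 1 and 3 from cells given the vehicle, and 15524 of the 62757 genes in the deposited table. Genes entered when their mean over the 12 libraries was at least 3 on the regularized log2 scale (rlog, a log2 expression value in which low counts are drawn toward the mean of the gene). The other 6 libraries were from cells given compound 4 at 10 µM or compound 5 at 5 µM, also for 72 h, and enter only where their values stand beside those of compound 1. The labels identify the compounds by number, and neither the molecule behind number 1 nor the vehicle is named in them. The series title concerns taxodione and paclitaxel in glioblastoma, and the question addressed here is which transcripts differed after compound 1.

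U87 (U87MG) is an established human glioblastoma line, kept here in serum-containing medium, so a single line stands for the tumour. The 3 libraries of each group are described as independent biological replicates, made from poly(A)-selected RNA. The levels of mesenchymal genes were high in vehicle cells (FN1 17.23, VIM 16.0 and CD44 15.12 on the rlog scale), and the progenitor gene NES was at 10.65. The glial genes OLIG2 and GFAP were low at 6.51 and 5.74, and SOX2 and S100B, which mark neural stem cells and glia, were near the bottom of the scale at 0.09 and 0.77. Of 95 gene lists, 6 held markers of other cell types. Their summed linear levels in the vehicle and then the compound 1 libraries ran from 1793 to 1803 and 1742 to 1833 for 14 neuron markers (SLC17A6 and ELAVL4 at 0), from 510 to 523 and 510 to 566 for 15 leukocyte markers (CD3D at 0), and from 359 to 381 and 372 to 384 for 12 endothelium markers. For 14 epithelium markers they were 360 to 373 and 380 to 383 (KRT5 at 0), and for 10 oligodendrocyte markers 2329 to 2360 and 2166 to 2307 (OLIG1 at 0), so these ranges did not overlap. Of these epithelium markers 8 had a mean below 3 and KRT8 was the most abundant. Of the oligodendrocyte markers 7 had a mean below 3 and CNP was the most abundant. Among members tested, 1 of 6 epithelium markers was called higher and 0 of 3 oligodendrocyte markers were called. The 11 fibroblast and pericyte markers include some matrix genes, of which COL1A2 was the most abundant marker. The 11 summed to 67884 to 74594 and 72894 to 75764. The part of other cell types in the results was not tested. In bulk RNA, fewer cells of a type and less RNA per cell cannot be told apart.

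Glioblastoma lines of mesenchymal character secrete a dense extracellular matrix, which is assembled from collagens, fibronectin and laminins, hydroxylated and crosslinked by enzymes of the secretory pathway, and cut by proteases held in check by tissue inhibitors. Low oxygen stabilises hypoxia-inducible factors, which raise glycolytic enzymes, glucose transporters and the angiogenic factor VEGFA. Cytosolic chaperones and the proteasome keep newly made proteins folded or degrade them, and their genes are often regulated together.

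Compound 1 gave many small differences and few large ones. In the limma fit, with Benjamini-Hochberg adjustment over all genes tested and a threshold of 0.05, 1688 genes were called, 10.9% of those tested. Of them 814 were higher (5.24% of genes tested) and 874 lower (5.63%). The median size of a called difference was 0.164 on the log2 scale, and 74.5% of called differences were under 0.2. Only 91 called genes were higher and 18 lower by at least 0.3, 15 and 2 by at least 0.5, and 1, IGFBP3, by at least 1. All fold values below come from rlog differences, which understate the change of low genes.

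Calls were more frequent among abundant genes. Of 2891 genes with a mean from 3 to 5, 1.94% were called, against 24.3% of 2193 genes with a mean of 11 or more. Each count of list members below is to be read beside the 10.9% called over all genes tested. Abundance was not matched for any list. Protein-coding genes were called lower more often than higher, 860 against 722 of 12764 (12.4% called), whereas 64 of 1720 long noncoding RNAs were called higher and 10 lower (4.3% called). Direction also differed with level. Among genes with a mean from 3 to 5, 44 were called higher and 12 lower. Among those with a mean of 11 or more, 211 were higher and 322 lower. Level was not matched between the classes. The 3 compound 1 and 3 vehicle libraries did not overlap for 4636 genes, 29.9% of those tested, and 1612 of these were called.

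**Figure D1:**
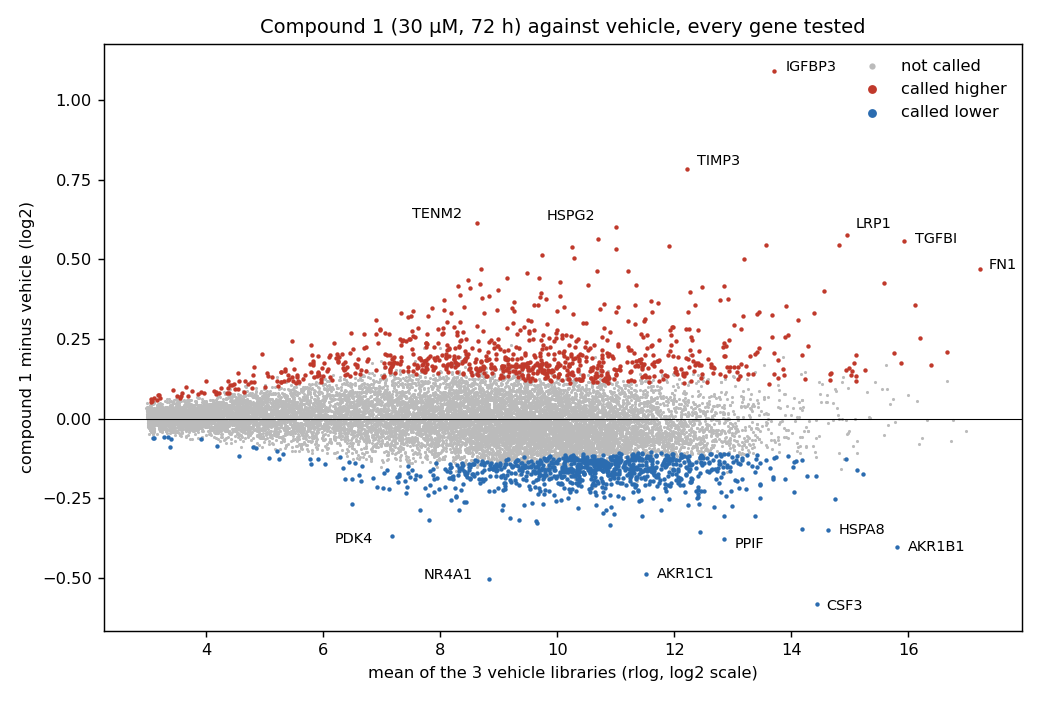
Difference between compound 1 and vehicle (log2) for each gene tested against its mean in the 3 vehicle libraries (rlog, log2 scale); red and blue points are genes called higher and lower in the limma fit, grey points were not called. IGFBP3 at 1.09 stands above all other genes, CSF3 at -0.58 is the lowest, and most called genes lie within 0.2 of the line at 0.

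A principal component analysis of the 6 libraries put 53.3% of the variance on a first component that separated the groups, with compound 1 at -5.06, -3.68 and -7.05 and vehicle at 5.90, 5.78 and 4.11. One measure of RNA composition moved with the groups. The mean rlog of 13 nuclear-retained RNAs was 9.42, 9.41 and 9.54 in the compound 1 libraries and 9.22, 9.27 and 9.36 in the vehicle libraries, with no overlap. A fit with this mean as a covariate therefore also removes part of the difference between the groups by its construction; it called 449 genes, 320 higher and 129 lower, of which 353 were among the 1688. Its part in the differences was not tested further, and the counts with this covariate stand beside the gene groups below.

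The largest rise was in IGFBP3 (ENSG00000146674.16, chr7:45912245-45921874 in GRCh38), which encodes the main carrier protein of insulin-like growth factors in serum. Its rlog was 14.88, 14.96 and 14.57 in the compound 1 libraries and 13.63, 13.78 and 13.73 in the vehicle libraries. The groups lay far apart, and compound 1 library 3 was the lowest of its group. The difference was 1.09 ± 0.08 (SE, n = 3 per group), or 2.13-fold, with a limma adjusted p of 8.77e-10.

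Of 13 tested genes in a list of insulin-like growth factor binding proteins, their proteases and related genes, 8 were called higher and 0 lower, with a median difference of 0.21 against -0.003 over all genes tested. PAPPA2, a protease that cleaves binding proteins, was at 9.96, 9.90 and 9.96 after compound 1 and 9.51, 9.46 and 9.47 in vehicle, a difference of 0.46 ± 0.05 (SE). STC2, a secreted inhibitor of such proteases, rose by 0.33 ± 0.04 (SE). IGFBP1 was at 9.23, 9.38 and 8.89 after compound 1 and at 8.57, 8.83 and 8.68 in vehicle. Its libraries came close to overlapping, and its difference of 0.47 (limma adjusted p = 0.00272) was not called with robust variance (adjusted p = 0.121) or with no filter on low values (adjusted p = 0.0905). IGFBP5 rose by 0.22 but was not called with the nuclear-retained covariate (adjusted p = 0.0571). With that covariate, 6 members of the list were called higher and 0 lower.

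Genes of matrix proteins, matrix inhibitors and cell-surface receptors were among the 12 largest rises. TIMP3, a matrix-bound inhibitor of metalloproteinases, was at 13.07, 13.09 and 12.84 after compound 1 and 12.20, 12.22 and 12.21 in vehicle. The lowest compound 1 library was above every vehicle library, and the difference was 0.79 ± 0.06 (SE), or 1.72-fold. HSPG2, which encodes the basement membrane proteoglycan perlecan, was at 11.52, 11.54 and 11.74 against 10.85, 10.99 and 11.15, a difference of 0.60 ± 0.06 (SE). The vehicle libraries varied more for HSPG2 than for TIMP3, and the highest vehicle library was still below the lowest compound 1 library. LRP1, an endocytic receptor that clears proteases and matrix proteins, rose by 0.58 ± 0.07 (SE), and TENM2, a teneurin of the neuronal cell surface, by 0.61 ± 0.05 (SE).

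Of 20 tested members of a list of enzymes that fold and crosslink collagen, 12 were called higher and 0 lower, with a median difference of 0.16. The lysyl oxidases, which crosslink collagen and elastin, led this list. LOXL2 was at 15.38, 15.39 and 15.29 after compound 1 and 14.83, 14.80 and 14.79 in vehicle, a difference of 0.55 ± 0.04 (SE), and LOX at 14.14, 14.13 and 14.08 against 13.56, 13.55 and 13.61, a difference of 0.54 ± 0.04 (SE). In both, the libraries of each group stood close together and the groups were well apart. LOXL3 rose by 0.36 and FKBP10, a collagen chaperone, by 0.33. Other members, named after their values were seen, were the collagen lysyl hydroxylases PLOD2 and PLOD1, higher by 0.31 and 0.26, and the prolyl hydroxylase subunit P4HA1, higher by 0.26. With the nuclear-retained covariate 9 members were called higher and 0 lower.

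Among the collagens, 5 of 22 tested were called higher and 0 lower, a share of 22.7% beside 10.9% of all genes tested. Their median difference was 0.08, and 6 and 0 were called with the covariate. COL5A1, a fibril-forming collagen that regulates fibril diameter, was at 13.73, 13.71 and 13.67 after compound 1 and 13.21, 13.18 and 13.22 in vehicle, a difference of 0.50 ± 0.05 (SE). COL7A1, the collagen of anchoring fibrils, rose by 0.42, COL6A3 by 0.36 and COL15A1 by 0.31. The main fibrillar collagen COL1A1 was at 14.19 after compound 1 and 14.15 in vehicle, a difference of 0.03 with an interval from -0.07 to 0.13, and was not called.

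In the list of matricellular and adhesive matrix proteins, 12 of 33 tested genes were called higher and 1, the laminin chain LAMA4, named after its values were seen, lower. FN1, fibronectin, was the most abundant of them, at 17.68, 17.66 and 17.74 after compound 1 and 17.18, 17.19 and 17.31 in vehicle. The difference was 0.47 ± 0.06 (SE), or 1.39-fold, but it was 0 under quantile normalization, in which a gene at the top rank of every library takes the same value in each. TGFBI, a secreted adhesion protein induced by TGF-beta, rose by 0.56 ± 0.04 (SE), the microfibril gene FBN1 by 0.40 and another laminin chain, LAMB2, by 0.36. TIMP1 and the metalloproteinase MMP19 rose by 0.33 and 0.35 among 8 of 28 proteases and inhibitors called higher, with 1, the sheddase ADAM17, also named after its values were seen, called lower. With the nuclear-retained covariate 9 matricellular genes and 7 proteases and inhibitors were called higher, and 0 of either list lower. F3, tissue factor, rose by 0.50 ± 0.05 (SE).

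**Figure D2:**
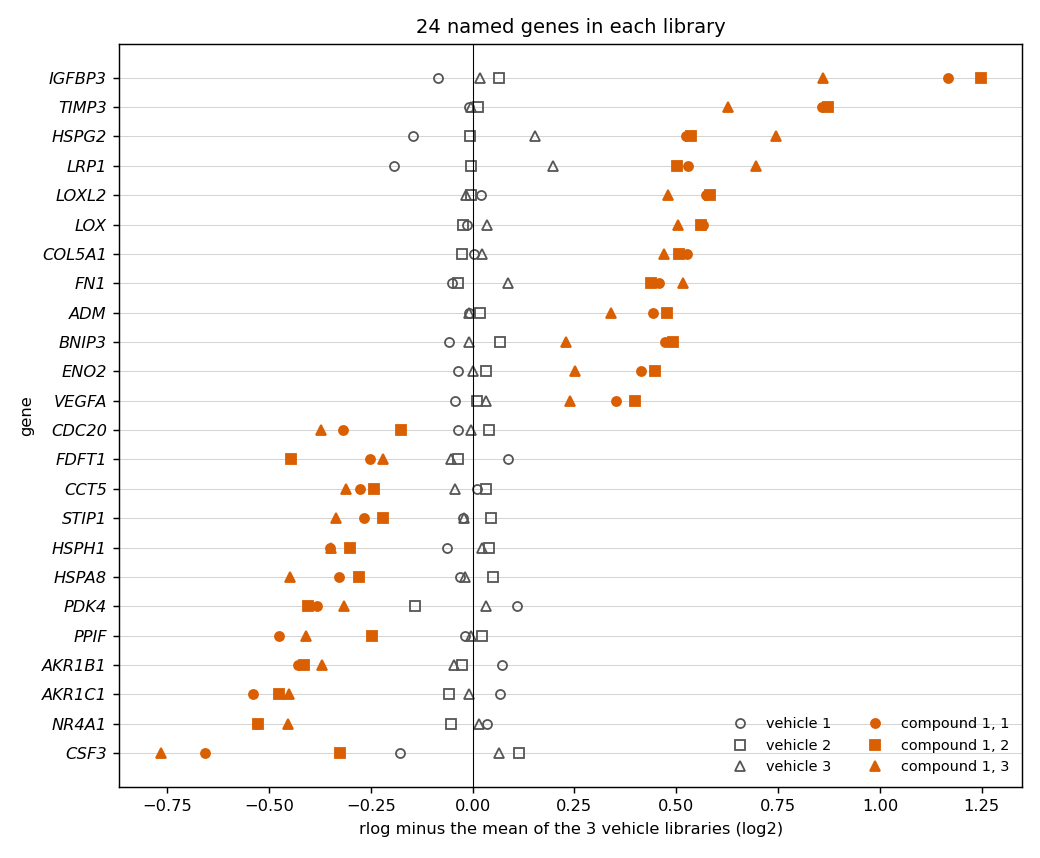
Values of 24 named genes in each of the 6 libraries, as rlog minus the mean of the 3 vehicle libraries (log2); open grey symbols are vehicle and filled orange symbols compound 1 libraries 1 (circle), 2 (square) and 3 (triangle). The groups do not overlap for any of these genes, which for the largest rises and falls follows from how they were chosen. Compound 1 library 3 is the lowest of its group for rises such as IGFBP3, TIMP3, LOX, ADM, BNIP3, ENO2 and VEGFA. It is also the lowest for falls such as HSPA8, CDC20 and CSF3, and the highest for HSPG2, FN1 and NR4A1.

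Hypoxia-induced and glycolytic genes were the largest group called higher. Of 36 tested, 20 were called higher and 1, HK1, named after its values were seen, lower, with a median difference of 0.17. HK1, a hexokinase, was at -0.14 and was not called when any 1 of the 3 vehicle libraries, or compound 1 replicate 1 or 3, was left out. Several abundant glycolytic enzymes, named after their values were seen, were not called: the differences were -0.02 for LDHA, -0.003 for ENO1 and -0.07 for PKM. With the nuclear-retained covariate 21 members were called higher and 0 lower. Under quantile normalization 18 were called higher and 3 lower, and ENO1 and PKM were called.

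To show what lies upstream of these genes, the 250 bases before the annotated start were taken from RefSeq (GRCh38.p14) for the 4 hypoxia-list members with the largest differences, ADM, BNIP3, ENO2 and SLC2A1, and for the most strongly reduced chaperone gene, HSPA8. The letters ACGTG, the core of the hypoxia response element, were searched on both strands. BNIP3 and ENO2 hold them, and ADM and SLC2A1 hold no match in this window. The BNIP3 stretch is chr10:131981924-131982173 on the minus strand and has overlapping matches on the 2 strands, at 134 and 133 bases before the start. The ENO2 stretch is chr12:6914330-6914579 on the plus strand and has 1 match, 118 bases before the start. HSPA8, at chr11:123062137-123062386 on the minus strand, was searched for TTCNNGAA, the paired unit of the heat shock element, and holds 2 matches, 225 and 55 bases before the start. HSPH1, the chaperone gene with the next largest fall, holds no match to these letters in its window and is not shown. Capitals mark the matched letters, and each stretch is read 5′ to 3′ on the strand of its gene.
BNIP3: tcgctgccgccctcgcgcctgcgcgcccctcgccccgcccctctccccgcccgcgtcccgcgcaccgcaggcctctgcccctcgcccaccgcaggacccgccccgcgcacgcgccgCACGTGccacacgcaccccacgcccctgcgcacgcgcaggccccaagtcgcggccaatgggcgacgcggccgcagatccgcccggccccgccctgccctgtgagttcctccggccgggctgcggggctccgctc
ENO2: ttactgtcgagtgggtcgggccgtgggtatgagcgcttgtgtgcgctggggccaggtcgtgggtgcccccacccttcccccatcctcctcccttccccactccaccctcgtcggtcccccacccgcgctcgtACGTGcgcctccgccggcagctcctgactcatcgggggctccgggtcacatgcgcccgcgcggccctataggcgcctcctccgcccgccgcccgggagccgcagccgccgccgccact
HSPA8: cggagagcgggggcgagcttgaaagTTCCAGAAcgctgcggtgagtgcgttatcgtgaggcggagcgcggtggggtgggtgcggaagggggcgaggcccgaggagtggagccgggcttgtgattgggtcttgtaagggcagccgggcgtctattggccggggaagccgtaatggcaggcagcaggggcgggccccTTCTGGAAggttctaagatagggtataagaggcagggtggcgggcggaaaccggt

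Over the 32 hypoxia-list members with a promoter in the table, 14 held ACGTG, 9 of the 17 called and 5 of the 15 not called, against 23.4% of the 11250 promoters of genes tested and 18.5% of all 35116 promoters. TTCNNGAA stood in 4 of 22 cytosolic chaperone promoters, 2 of the 15 called and 2 of the 7 not called, against 5.13% of promoters of genes tested. A match is a description of these letters and not of binding.

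ADM, which encodes the vasodilator peptide adrenomedullin, was at 10.962, 10.997 and 10.859 after compound 1 and 10.510, 10.538 and 10.512 in vehicle, a difference of 0.42 ± 0.04 (SE). BNIP3, a mitophagy receptor, was at 12.75, 12.77 and 12.51 against 12.22, 12.35 and 12.27, a difference of 0.40 ± 0.05 (SE). ENO2, the neuronal enolase, was at 13.20, 13.23 and 13.03 against 12.75, 12.81 and 12.78, a difference of 0.37 ± 0.04 (SE). For each of these genes compound 1 library 3 was the lowest of its group and still above every vehicle library. VEGFA rose by 0.33 ± 0.05 (SE), and the carbonic anhydrase CA9, named after its values were seen, by 0.28 ± 0.04 (SE). MIR210HG, the host transcript of a hypoxia-induced microRNA, rose by 0.41 ± 0.06 (SE).

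The glucose transporter SLC2A1 was less even, at 11.42, 11.61 and 11.11 after compound 1 and 10.96, 11.06 and 11.08 in vehicle. Compound 1 library 3 stood next to the vehicle libraries. Its difference of 0.35 (limma adjusted p = 0.00952) was not called without compound 1 replicate 2 (0.23, adjusted p = 0.0783), without vehicle replicate 1 (0.31, adjusted p = 0.059), with robust variance (adjusted p = 0.176), with no filter on low values (adjusted p = 0.16) or with no mean-variance trend (adjusted p = 0.0637). The median over the whole list, relative to the vehicle mean, was 0.21 in compound 1 libraries 1 and 2 and 0.07 in library 3. Without compound 1 replicate 1, 13 members of the list were called higher.

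Calls in the lists of cytosolic chaperones, the chaperonin and the proteasome were all lower. Of 26 tested cytosolic heat shock chaperones and their partners, 16 were called lower and 0 higher, with a median difference of -0.145. Of 14 members of the chaperonin and prefoldin list, 8 were called lower and 0 higher, with a median of -0.17, and these 8 were TCP1 and the CCT subunits of the chaperonin that folds actin and tubulin. Of 34 proteasome subunits and partners, 21 were called lower and 0 higher, with a median of -0.145.

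HSPA8, the constitutive cytosolic HSP70, was at 14.30, 14.35 and 14.18 after compound 1 and 14.60, 14.68 and 14.61 in vehicle, and fell by 0.35 ± 0.05 (SE). HSPH1, its nucleotide exchange factor, was at 10.55, 10.60 and 10.56 against 10.84, 10.94 and 10.93, and fell by 0.33 ± 0.04 (SE). STIP1, which links HSP70 to HSP90, was at 12.71, 12.76 and 12.64 against 12.96, 13.03 and 12.96, and fell by 0.27 ± 0.04 (SE). In all of these the highest compound 1 library was below the lowest vehicle library. HSPA1B fell by 0.32 ± 0.05 (SE), whereas its near-identical copy HSPA1A was at 4.46 and 4.45 in the groups with no call; reads of the pair may be split between them, so their single values are uncertain. HSP90AA1, named after its values were seen, fell by 0.25 ± 0.04 (SE).

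CCT5, a chaperonin subunit, was at 12.40, 12.43 and 12.36 after compound 1 and 12.68, 12.71 and 12.63 in vehicle, and fell by 0.28 ± 0.04 (SE). CCT7 and TCP1 fell by 0.24 and 0.23. The proteasome subunit PSMA3 was at 10.55, 10.58 and 10.59 against 10.74, 10.81 and 10.78, and fell by 0.20 ± 0.04 (SE). PSMD7 and PSMD2 of the regulatory particle fell by 0.23 each, but neither was called with the nuclear-retained covariate (adjusted p = 0.569 and 0.36). That covariate left 8 chaperones, 3 chaperonin subunits and 3 proteasome genes called lower. The stress-induced HSPA6 was at a difference of 0.00 and was not called, and the oxidative stress gene HMOX1 was at 11.25 after compound 1 and 11.27 in vehicle, a difference of -0.01 with an interval from -0.09 to 0.07.

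**Figure D3:**
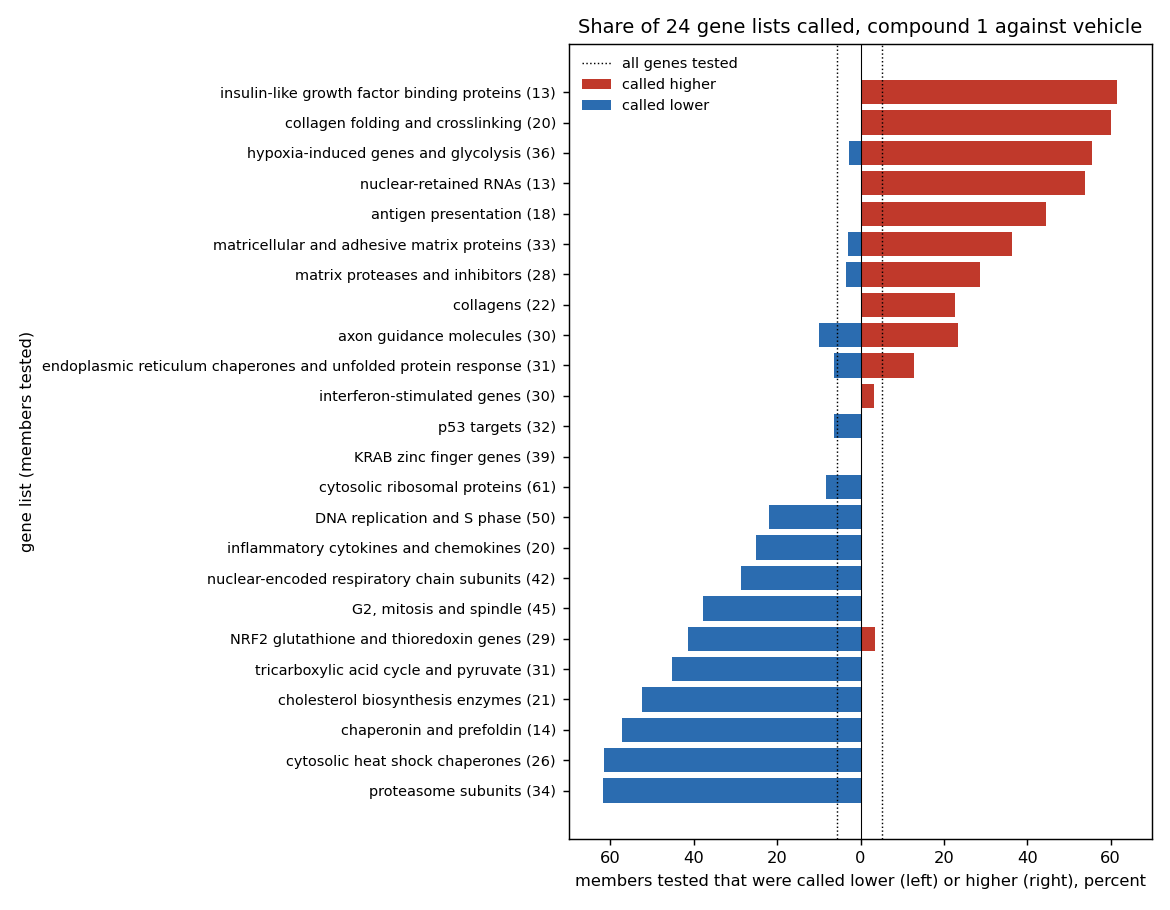
Share of the tested members of 24 gene lists called higher (red, to the right) or lower (blue, to the left) after compound 1, in percent, with the number of members tested in brackets; dotted lines mark the shares over all genes tested, 5.24% higher and 5.63% lower. Growth factor binding proteins, collagen processing and hypoxia lists lie to the right, chaperones and proteasome to the left, and KRAB zinc finger genes have no call.

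Of 21 enzymes of cholesterol synthesis 11 were called lower and 0 higher, with a median of -0.16. FDFT1, squalene synthase, was at 13.13, 12.94 and 13.16 after compound 1 and 13.47, 13.35 and 13.33 in vehicle, and fell by 0.30 ± 0.05 (SE). FDPS, which makes its substrate, fell by 0.24 ± 0.04 (SE). Compound 1 library 2 was the lowest for this pathway, with a median over the list of -0.25 relative to the vehicle mean against -0.10 and -0.12 in libraries 1 and 3. HMGCS1, an enzyme at the entry of the pathway, was at a difference of -0.07 ± 0.07 (SE) and was not called. CYP51A1, a sterol demethylase, fell by 0.25 and was not called with the nuclear-retained covariate (adjusted p = 0.457). The covariate left 5 enzymes called lower, and leaving out vehicle replicate 1 left 7. The fatty acid desaturases FADS1 and FADS2 fell by 0.23 and 0.21 and kept their calls in both, whereas their relative FADS3 rose by 0.27 ± 0.04 (SE) and was not called with the covariate (0.17, adjusted p = 0.0958). Of the 17 tested genes of fatty acid synthesis and desaturation 5 were called lower and 1, FADS3, higher, and 3 and 0 with the covariate.

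Of 31 genes of the tricarboxylic acid cycle and pyruvate metabolism 14 were called lower and 0 higher, and of 42 nuclear-encoded respiratory chain subunits 12 were called lower and 0 higher. These shares were 45.2% and 28.6%, beside 10.9% of all genes tested and 24.3% of genes with a mean of 11 or more. GOT2, the mitochondrial aspartate aminotransferase, was at 10.89, 10.90 and 10.84 after compound 1 and 11.12, 11.13 and 11.12 in vehicle, and fell by 0.25 ± 0.03 (SE). The lowest differences within these lists were -0.248 and -0.204. PDK4 and PPIF belong to neither list and are not among their counts. PDK4, which inhibits pyruvate dehydrogenase, was at 6.798, 6.778 and 6.864 against 7.29, 7.04 and 7.21, and fell by 0.37 ± 0.06 (SE). PPIF, the mitochondrial cyclophilin, fell by 0.38 ± 0.05 (SE).

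These mitochondrial counts were sensitive to single libraries. For the tricarboxylic acid cycle list they were 6 without vehicle replicate 1, 7 without compound 1 replicate 3 and 8 without vehicle replicate 2, and for the respiratory subunits 5 without compound 1 replicate 3, 5 without vehicle replicate 2, 7 without compound 1 replicate 1 and 7 without vehicle replicate 1. With the nuclear-retained covariate 1 and 0 members were called lower. Of 13 transcripts encoded by the mitochondrial genome 3 were called higher and 0 lower, 2 higher without compound 1 replicate 3 or vehicle replicate 1. Their median difference was 0.145, but 0.0739 without vehicle replicate 1 and -0.0403 with the covariate. Relative to the vehicle mean, the median was 0.0683, 0.139 and 0.283 in the compound 1 libraries and -0.138, 0.0329 and 0.0965 in the vehicle libraries, so the groups overlapped. MT-ND6 was at 12.79, 12.85 and 13.04 after compound 1 and 12.34, 12.51 and 12.60 in vehicle, and its difference of 0.41 ± 0.07 (SE) was not called with the covariate (0.17, adjusted p = 0.348), nor was any other of the 13.

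Of 45 genes of G2, mitosis and the spindle 17 were called lower and 0 higher, with a median of -0.10. CDC20, the activator of the anaphase-promoting complex, was at 11.46, 11.61 and 11.41 after compound 1 and 11.75, 11.82 and 11.78 in vehicle, and fell by 0.29 ± 0.04 (SE). PLK1 and AURKA, mitotic kinases, fell by 0.26 and 0.25, and neither was called with the covariate (adjusted p = 0.197 and 0.12), which left 1 member of the list called. MKI67 was at a difference of -0.04 and TOP2A at -0.05, neither called. Without compound 1 replicate 3, or without vehicle replicate 2, 11 members were called lower.

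Of 50 genes of DNA replication, 11 were called lower and 0 higher, but 2 without compound 1 replicate 3 and 2 without vehicle replicate 2, 7 without compound 1 replicate 1 and 7 without vehicle replicate 3, 18 without compound 1 replicate 2 and 0 with the covariate. Of 32 targets of p53, 0 were called higher and 2 lower, 1 lower without compound 1 replicate 1 or 3, and 0 with the covariate. Without compound 1 replicate 2 or vehicle replicate 3, 1 was called higher. CDKN1A, the cell cycle inhibitor among these targets, was at 12.91, 12.84 and 12.91 after compound 1 and 13.18, 13.04 and 13.02 in vehicle. It fell by 0.20 ± 0.04 (SE), and was not called with the covariate (adjusted p = 0.0766).

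**Figure D4:**
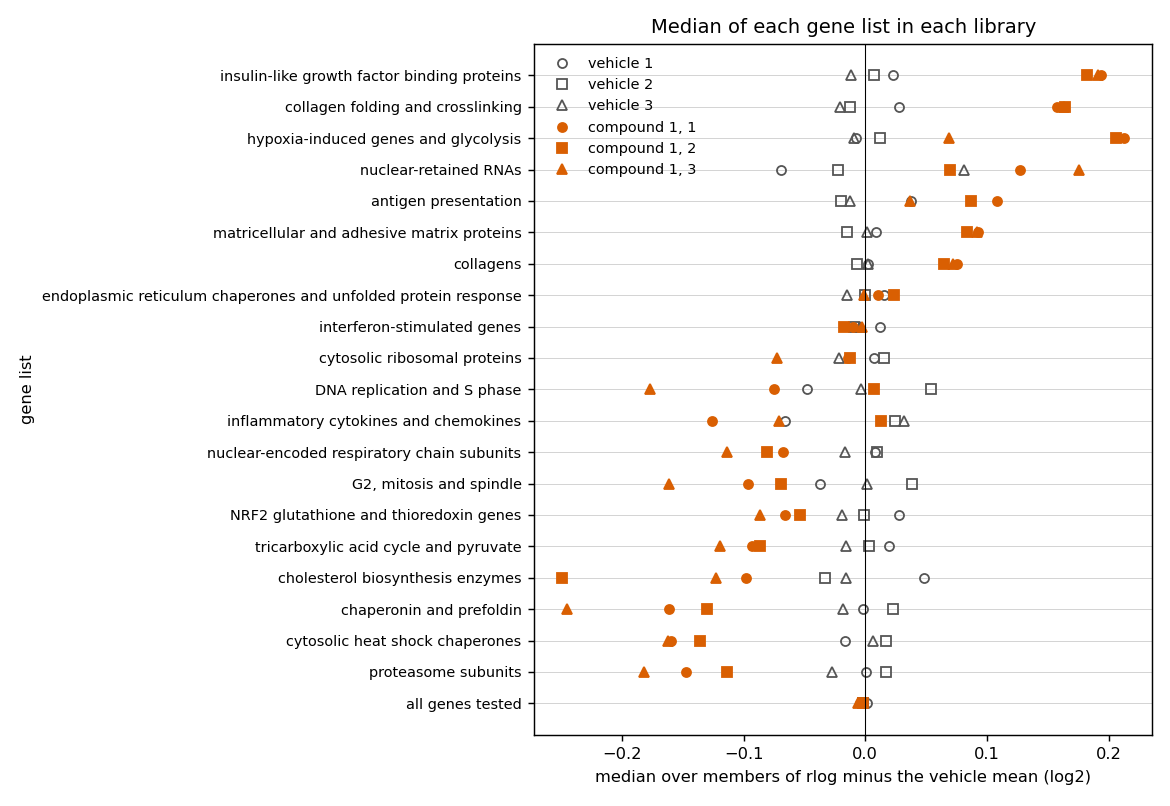
Median over the tested members of 20 gene lists, and over all genes tested, of rlog minus the vehicle mean in each library (log2); open grey symbols are vehicle and filled orange symbols compound 1 libraries 1 (circle), 2 (square) and 3 (triangle). The compound 1 libraries lie beyond the vehicle libraries for collagen processing, chaperones and proteasome subunits, and mix with them for antigen presentation, nuclear-retained RNAs, DNA replication and inflammatory cytokines.

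The largest fall was in CSF3 (chr17:40015361-40017813 in GRCh38), the granulocyte colony-stimulating factor. Its rlog was 13.79, 14.12 and 13.68 after compound 1 and 14.27, 14.56 and 14.51 in vehicle. Compound 1 library 2 came nearest to the lowest vehicle library, and the difference was -0.58 ± 0.08 (SE), or 1.497-fold lower, with a limma adjusted p of 1.55e-05. The chemokine CXCL1 fell by 0.26 ± 0.05 (SE); reads of the near-identical CXCL2 and CXCL3 may be shared with it. Of 20 inflammatory cytokines and chemokines 5 were called lower and 0 higher, but single libraries moved this count, to 2 without compound 1 replicate 1, 3 without vehicle replicate 2, 3 without vehicle replicate 3 and 8 without compound 1 replicate 2, and the covariate left 3. IL1B was at a difference of -0.17 and CXCL8 at 0.14, neither called. Of 30 interferon-stimulated genes 1 was called higher and 0 lower, a share of 3.33%, under the 10.9% of all genes tested. With the covariate, without compound 1 replicate 3 or without vehicle replicate 2, 0 were called either way.

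The orphan nuclear receptor NR4A1, an immediate early gene, was at 8.30, 8.31 and 8.38 after compound 1 and 8.87, 8.78 and 8.85 in vehicle, and fell by 0.50 ± 0.05 (SE). Its relative NR4A2 fell by 0.29, while the immediate early factor EGR2 rose by 0.38 ± 0.05 (SE), so this class did not move as one. RRAD, a small GTPase, and the chromatin protein HMGA1 fell by 0.35 each, and the glutamate transporter SLC1A3 by 0.33.

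Aldo-keto reductases stood out among the genes of NRF2, glutathione and thioredoxin, where 12 of 29 were called lower and 1, ABCC3, higher. ABCC3, an efflux transporter, was at 0.17 and was not called without compound 1 replicate 1 or 3, or without any 1 of the vehicle libraries. AKR1C1, a ketosteroid reductase, was at 10.98, 11.04 and 11.07 after compound 1 and 11.59, 11.46 and 11.51 in vehicle, and fell by 0.49 ± 0.05 (SE). AKR1B1, aldose reductase the enzyme that reduces glucose to sorbitol, was at 15.38, 15.39 and 15.43 against 15.88, 15.78 and 15.76, and fell by 0.40 ± 0.04 (SE). For both, the groups were clearly apart. AKR1C3 fell by 0.27, with reads that may be shared among the AKR1C copies. NQO1 and TXNRD1 fell by 0.16 and 0.18 and were not called with the covariate (adjusted p = 0.2 and 0.531), which left 4 members called lower and 1 higher.

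Of 18 antigen presentation genes tested, 8 were called higher and 0 lower, with a median of 0.08. HLA-C was at 13.68, 13.68 and 13.66 after compound 1 and 13.53, 13.42 and 13.41 in vehicle, and rose by 0.22 ± 0.04 (SE). HLA-B rose by 0.23 and was not called with the covariate (adjusted p = 0.0916); reads may be shared between these genes. The covariate left 2 members called, and leaving out compound 1 replicate 1 or vehicle replicate 2 left 4 and 5. Of 29 lysosomal genes 5 were called higher and 1 lower, a share of 20.7% beside 10.9% of all genes tested. Those called higher were led by the acid glucosidase GAA at 0.30 ± 0.04 (SE), and 4 were called higher with the covariate. The 1 called lower was not called with the covariate, under quantile normalization or when any library was left out.

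RNAs kept in the nucleus are the members of the covariate, so their loss of calls with it follows from its construction. Of 13 tested 7 were called higher and 0 lower, with a median of 0.15, and without compound 1 replicate 3 or without vehicle replicate 2 the count was 4. NEAT1, the scaffold RNA of paraspeckles, was at 12.39, 12.30 and 12.67 after compound 1 and 11.69, 11.92 and 12.12 in vehicle. Its difference of 0.54 ± 0.08 (SE) was not called with the covariate (0.16, adjusted p = 0.227), of which it is itself a part. MALAT1 was at 9.38, 9.32 and 9.65 against 9.04, 9.17 and 9.44, overlapping, and its difference of 0.23 was not called (adjusted p = 0.149). With the covariate it was -0.32 (adjusted p = 0.0119). Differences of the 13 members with this covariate balance out by construction, so this negative value is not read as a fall. Genes named after their values were seen rose beside them, among them the cyclin and splicing-speckle gene CCNL2 by 0.46, AHSA2P by 0.39, ARGLU1 by 0.36 and RSRP1 by 0.35. None of these was called with the covariate (adjusted p = 0.262, 0.387, 0.419 and 0.62).

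Of 30 axon guidance molecules 7 were called higher and 3 lower, a share of 33.3% beside 10.9% of all genes tested. The higher count was 2 without vehicle replicate 2 and 3 without compound 1 replicate 3, the lower count was 1 without compound 1 replicate 3 or vehicle replicate 1 and 2 without compound 1 replicate 2, vehicle replicate 2 or vehicle replicate 3, and the covariate left 4 higher and 0 lower. SEMA3B, a secreted semaphorin, was at 9.70, 9.56 and 9.70 after compound 1 and 9.45, 9.33 and 9.34 in vehicle, and rose by 0.28 ± 0.05 (SE). Among 35 genes of TGF-beta and BMP signalling 2 were called higher and 2 lower, a share of 11.4% near the 10.9% of all genes tested. With the covariate 3 were called each way. Without vehicle replicate 1, 3 were called higher and 0 lower, and the lower count was 1 without compound 1 replicate 1 or 2 or vehicle replicate 3. GREM1, a secreted BMP antagonist, was at 12.56, 12.62 and 12.52 after compound 1 and 12.18, 12.25 and 12.25 in vehicle, and rose by 0.34 ± 0.04 (SE), and LTBP3, which stores latent TGF-beta in the matrix, rose by 0.26 ± 0.04 (SE). Every compound 1 library was above every vehicle library for these genes. Of 31 genes of the endoplasmic reticulum and unfolded protein response 4 were called higher and 2 lower, a share of 19.4% beside 10.9% of all genes tested. The luminal chaperones P4HB at 0.20 and CALR at 0.16 were among those called higher. The lower count was 0 with the covariate and without compound 1 replicate 1 or any 1 vehicle library, and 1 without compound 1 replicate 3; the higher count was 3 with the covariate and 2 without compound 1 replicate 1. Of 30 genes of the ATF4 amino acid response 4 were called higher and 1 lower, a share of 16.7% beside the same 10.9%, with a median of 0.04. The higher count was 2 with the covariate and without compound 1 replicate 3, vehicle replicate 2 or vehicle replicate 3. The lower count was 0 with the covariate and without compound 1 replicate 1, vehicle replicate 1 or vehicle replicate 2, and 2 without compound 1 replicate 3.

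Of 89 lists of functions, 4 had no called member: 39 KRAB zinc finger genes, 30 genes of N-glycosylation, 25 of the peroxisome and 16 of the nuclear lamina and envelope. Of 61 cytosolic ribosomal protein genes 5 were called lower and 0 higher, a share of 8.2% beside 10.9% of all genes. Abundance was not matched in this, and 24.3% of genes with a mean of 11 or more were called. The count of ribosomal protein genes called lower was 0 with the covariate and without compound 1 replicate 3, vehicle replicate 1 or vehicle replicate 2. It was 1 without compound 1 replicate 1. Of 13 tubulin isotypes 2 were called higher and 1 lower, a share of 23.1%, but 0 were called higher without compound 1 replicate 1 or vehicle replicate 1, 1 with the covariate or without any other library, and 2 were called lower without compound 1 replicate 2. The covariate left 0 called lower, and the beta-tubulins TUBB and TUBB3 were not called. The drug efflux transporter ABCB1 was below the filter, at 0.06 in vehicle and 0.05 after compound 1. The 89 lists of functions and the 6 of cell types held 470 of the 1688 called genes, and 1218 called genes stood in no list.

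The same genes are set beside their differences under compounds 4 and 5, which share the 3 vehicle libraries and were given at other doses, so no comparison was made. IGFBP3 differed from vehicle by 1.09 under compound 1, by -0.11 under compound 4 and by 0.95 under compound 5. For LOX the values were 0.54, -0.29 and 0.54, and for COL5A1 0.50, -0.23 and 0.38. Hypoxia-list medians were 0.17, 0.01 and 0.21, with ADM at 0.42, 0.66 and 0.71. Those for the cholesterol enzymes were -0.16, -0.92 and -0.61, with FDFT1 at -0.30, -1.34 and -0.85. Chaperone medians were -0.145, 0.07 and -0.01, with HSPA8 at -0.35, -0.03 and -0.07. For CSF3 the values were -0.58, 1.80 and 0.91, for AKR1B1 -0.40, -0.03 and 0.02, and for AKR1C1 -0.49, -0.43 and -0.59.

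**Figure D5:**
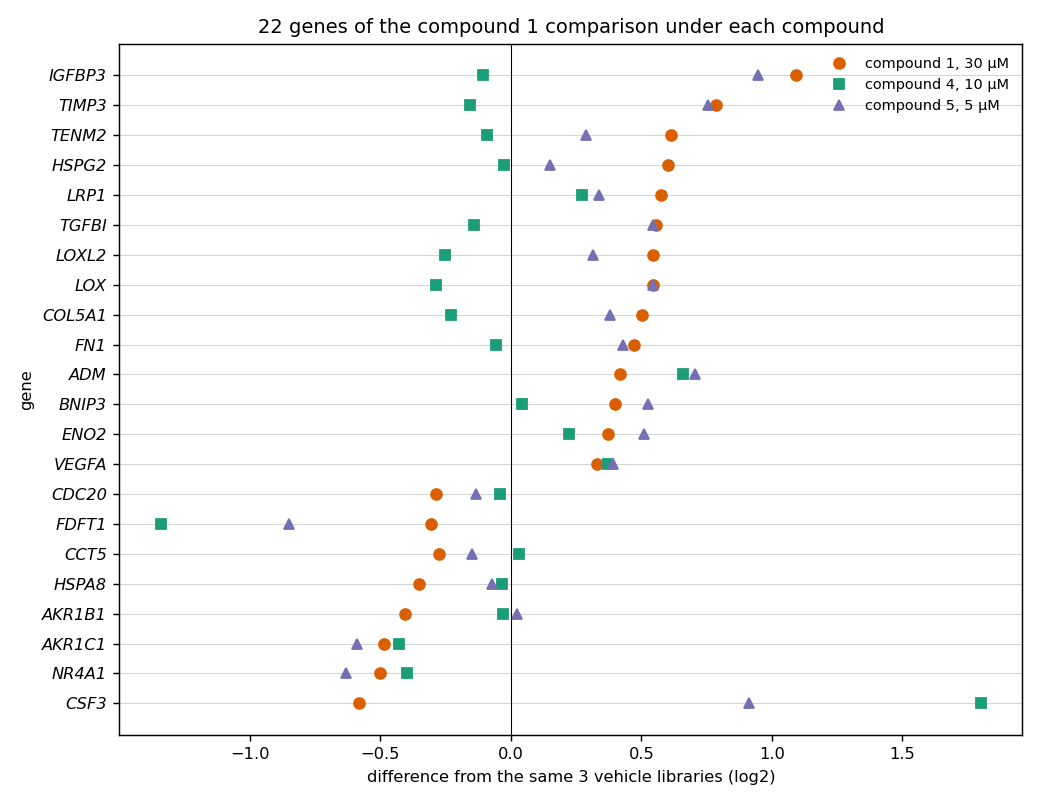
Difference from the same 3 vehicle libraries (log2) of 22 genes under compound 1 at 30 µM (orange circle), compound 4 at 10 µM (green square) and compound 5 at 5 µM (violet triangle). The genes were chosen from the compound 1 comparison; CSF3 is at -0.58 under compound 1 and at 1.80 and 0.91 under the other compounds, and FDFT1 is at -0.30, -1.34 and -0.85.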

How the data were processed

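Poly(A)-selected RNA of U87 cells was sequenced by the submitters, who deposited 1 table of rlog values, that is, log2 values regularized by DESeq2, for 62757 genes in 12 libraries. Alignment used STAR 2.7.10a and the GRCh38 build, and the transformation DESeq2 1.30.1, per the submitters' processing notes. Counting tool, annotation, strand setting and filters were not given in the sources used here; 25759 genes were at 0 in every library. The table holds no counts, so the depth per library is unknown and no counting interval could be given.

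Genes with a mean of at least 3 over the 12 libraries were fitted with limma 3.58.1 (R 4.3.3) using 1 mean per group, a mean-variance trend and 8 residual degrees of freedom. The contrast was compound 1 minus vehicle, and genes with a Benjamini-Hochberg adjusted p under 0.05 over all 15524 genes were called; errors are standard errors of this fit. On simulated data of 15524 genes the fit called 95% of 100 genes changed by 0.3 and 37% of 100 changed by 0.15, and 5.71% of its 140 calls were false. The simulated noise was independent for each gene, without variation shared by the genes of a library, so these shares need not hold for the data. Gene lists were described by counts and medians, with no set test. Genes named by rule were the 12 largest rises and 12 largest falls with separate groups, up to 4 called members of each of 95 lists, the 6 largest abundant genes and the 6 smallest adjusted p-values in each direction, 5 long noncoding RNAs in each direction and a set of fixed genes. The members, lists and rule were chosen with earlier results of these data known. Gene coordinates and classes came from GENCODE and promoters from RefSeq (GRCh38.p14). Alternatives changed the filter, scaling, variance model, libraries and covariates. Figures were drawn with matplotlib 3.10.9.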

Additional observations from a re-analysis of the deposited data

How the results depend on the processing

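The count of called genes (1688, 814 higher and 874 lower) kept within 1.5 times under a filter at a mean of 5, median centring, quantile normalization, the 6 libraries alone, robust variance, no trend and removal of a trend on GC content and length. It was 800 (422 higher, 378 lower) with no filter, 2734 (1270 and 1464) with library weights, 449 (320 and 129) with the level of nuclear-retained RNAs as a covariate, and 17 (15 and 2) with an added minimum difference of 0.5. Leaving out 1 library at a time gave 849 to 1582 calls, 425 to 719 higher and 424 to 863 lower, with 849 without vehicle replicate 2, 978 without compound 1 replicate 3, 1043 without compound 1 replicate 1 and 1056 without vehicle replicate 1. The covariate removes part of the group difference by construction, and no call shared with it changed sign. The replicate block gave 1706 calls, of which 1631 were shared. Deviations of same-numbered libraries correlated at 0.0132, 0.249 and 0.171 across genes, and those of differently numbered libraries at -0.265 to 0.0756. Whether the numbers pair the libraries was not settled, and the main fit did not pair them. Of 309 named genes called, 87 kept the call under every alternative other than the added minimum difference. Under quantile normalization FN1 was at 0.00 and GAPDH at -0.051. With the covariate the sign changed for ADIRF-AS1 (-0.083), MEG3 (-0.15), MALAT1 (-0.32), SAT1 (-0.0045), TPM2 (-0.012), LUC7L3 (-0.12), H2AC6 (-0.013), PARP1 (0.018) and RAD54L (0.0010); the cause was not tested beyond the construction named. Without counts, what depth limits cannot be stated.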

Other observations

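A further group, chosen after its values were seen, was the breakdown of tryptophan along the kynurenine route. TDO2, which opens the pathway, was at a difference of -0.24 ± 0.05 (SE, n = 3 per group), KYNU, kynureninase, at -0.31 ± 0.04 (SE), and QPRT, which leads from quinolinate to NAD, at -0.31 ± 0.05 (SE). All were called in the limma fit (adjusted p = 0.00338, 1.32e-05 and 3.84e-05 after Benjamini-Hochberg adjustment), with the compound 1 libraries below the vehicle libraries, and all kept their calls under each alternative other than the added minimum difference, which for QPRT and TDO2 was not run. AOX1, an aldehyde oxidase, fell by 0.27 ± 0.04 (SE) and was not called with the nuclear-retained covariate (adjusted p = 0.0656). The genes were picked for their values, so their shared direction is a description.

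Base composition differed between the calls. The GC content of a gene was averaged over its annotated transcripts. Its median was 55.5% for genes called higher, 49.3% for genes called lower and 49.6% for all genes tested. These medians cover the 97.24% of genes tested that had a value. With a smooth trend on GC content and length removed from each library, 1915 genes were called, 908 higher and 1007 lower, and 1565 of them were among the 1688.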
